A study of Mus musculus with 12 samples.

Results

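Hippocampal RNA of F1_Dep mice, male offspring fathered by males made depressed by stress, was compared with that of F0_Dep mice, which had themselves been made depressed by stress. The comparison takes 6 of the 12 libraries of the series, 3 from each group, and follows each gene through the expected count table of all 12 libraries and through the per-library FPKM values of 9 of them. All mice were C57BL/6 males aged 8 weeks, and each library came from the hippocampus of 1 mouse. The remaining 6 libraries, 3 of normal mice (F0_Ctl) and 3 of male offspring of normal males (F1_Ctl), entered the fit and gave the same generation contrast without stress. The labels do not say how the stress was applied, whether the F0_Dep mice were the fathers of the F1_Dep mice, which F1 mice shared a litter, or whether F1 mice were stressed. The comparison therefore holds a difference in generation, any difference in the mouse's own stress and any difference in handling or dissection. These cannot be told apart.

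The hippocampus is a folded sheet in which granule cells of the dentate gyrus send their axons to the pyramidal cells of CA3, which in turn project to CA1. The dentate gyrus keeps making neurons in the adult mouse, and the region is rich in receptors for the stress hormones of the adrenal cortex. Oligodendrocytes wrap the axons of its fibre tracts in myelin, and the choroid plexus, an epithelium that secretes cerebrospinal fluid, lies against its edge.

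Library totals were between 18277024 and 18485172 counts in F0_Dep and between 19131766 and 23083549 in F1_Dep. Log expression of F0_Dep libraries correlated with one another at 0.987 to 0.988, that of F1_Dep libraries at 0.983 to 0.990, and that of libraries from different groups at 0.958 to 0.974, over the genes tested. Within F1_Dep, library 1 stood apart: it held far more RNA of striatal marker genes and far less of dentate granule cell genes than F1_Dep 2 and 3. Among the control libraries, F0_Ctl 3 and F1_Ctl 3 held much more choroid plexus RNA than the others of their groups. Results that rest on F1_Dep 1 are given with and without it.

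Of 16163 genes tested, 465 (2.88%) were called at an adjusted p under 0.05 in edgeR's quasi-likelihood test, 212 higher in F1_Dep (1.31%) and 253 lower (1.57%). With library totals as the only scaling the split was 245 higher and 185 lower. The middle gene did not move, with a median log2 fold change of 0.01 over all tested genes. Levels in CPM (counts scaled to the library total and by TMM) of the 2 groups did not overlap for 6946 genes (43%), with F1_Dep above F0_Dep for 3651 (22.6%) and below it for 3295 (20.4%). In FPKM, limma called 1590 of 12785 genes (12.4%), 971 higher (7.59%) and 619 lower (4.84%). An FPKM test was possible for 426 of the 465 genes, and 376 of them were called in both kinds of table with the same sign, 173 higher and 203 lower.

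How many genes were called depended on single libraries. With F0_Dep 1 left out 25 genes were called, with F0_Dep 2 left out 16, and with F0_Dep 3 left out 8. Leaving out F1_Dep 1 gave 13 genes, F1_Dep 2 gave 172 and F1_Dep 3 gave 14. Only 8 genes were called in the whole set and in each of these 6 omissions: Plk3, Sema5a, Tceal5, Lrrc17, Galnt2, mt-Co2 and the pseudogenes Gm28661 and Gm28437. Of these, Plk3, Sema5a and Tceal5 were also called in FPKM. Without F0_Ctl 3, F1_Ctl 3 and F1_Dep 1 together, the 3 libraries that stood apart, 1347 genes were called, 429 of them among the 465. Of the 1347, 823 were higher and 524 lower. This omission was chosen after seeing the data.

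**Figure D1:**
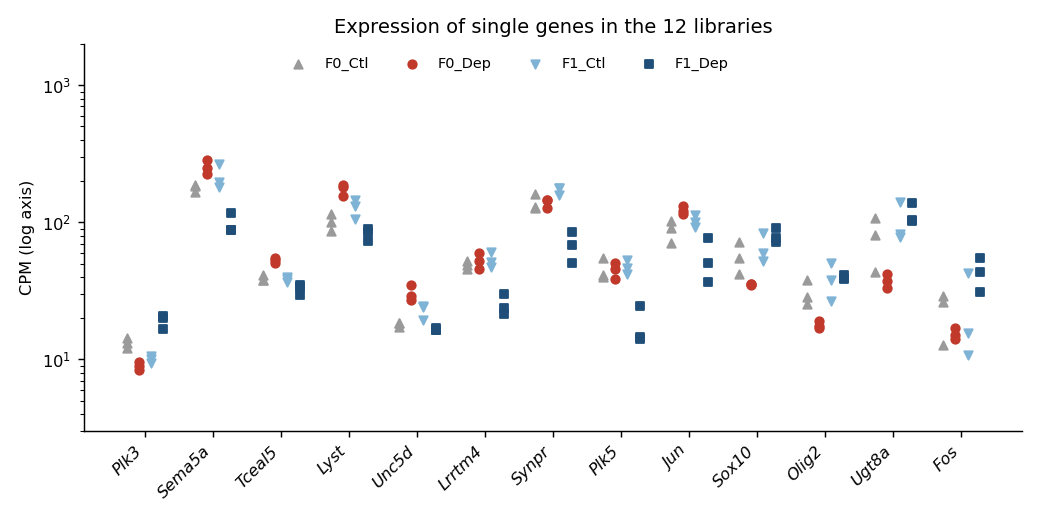
CPM on a log axis of 13 genes in each of the 12 libraries, by group, 1 point per library. Plk3, Sox10, Olig2, Ugt8a and Fos lie higher in all 3 F1_Dep than in all 3 F0_Dep libraries, and the other 8 genes lie lower.

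Plk3, a polo-like kinase of the cell's stress and DNA damage responses, rose in F1_Dep. It lies on chromosome 4 of GRCm38 at 117128655 to 117133963. Its level was 8.96, 9.59 and 8.40 CPM in F0_Dep 1, 2 and 3 and 20.8, 20.01 and 16.7 CPM in F1_Dep 1, 2 and 3. The groups did not overlap, and the 3 F1_Dep libraries were the highest of all 12. The log2 fold change was 1.09 ± 0.12 (SE, adjusted p = 0.00422), and 1.11 in FPKM. Its call was kept in each of 19 alternative analyses.

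Sema5a, a semaphorin that guides axons and restrains synapse formation by granule cells, fell in F1_Dep. It lies on chromosome 15 at 32244810 to 32696341. F0_Dep 1, 2 and 3 held 247, 224 and 286 CPM, and F1_Dep 1, 2 and 3 held 88.1, 117 and 88.5 CPM. All F1_Dep libraries were below all others of the series, and F1_Dep 1 lay beside F1_Dep 3. The log2 fold change was -1.36 ± 0.16 (SE, adjusted p = 0.00526), and -1.38 in FPKM, and the call was kept in each of 19 alternatives.

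Tceal5, an X-linked member of the TCEAL family of small nuclear proteins, fell as well. It stood at 55.1, 53.2 and 50.6 CPM in F0_Dep and at 33.4, 29.6 and 34.9 CPM in F1_Dep. Both groups were tight, and the log2 fold change was -0.70 ± 0.09 (SE, adjusted p = 0.00579), and -0.65 in FPKM. Lrrc17, a secreted leucine-rich repeat protein, fell in the counts from 13.1, 14.8 and 10.9 CPM to 3.03, 3.70 and 2.43 CPM. Its log2 fold change was -2.08 ± 0.22 (SE, adjusted p = 0.00306). In FPKM, however, Lrrc17 was at or below 0.0736 in these 6 libraries and could not be tested. Its 32346 bases lie wholly inside Fbxl13 on the opposite strand, and the sources do not say whether the counting used strand.

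Some of the largest differences in the counts lay in mt-Co2 and in copies of mitochondrial genes on chromosome 1, and these were near 0 in FPKM. The mitochondrial genome encodes subunits of the respiratory chain, and a stretch of it has been copied into nuclear chromosome 1, where the annotation holds Gm28661, Gm28437 and Gm10925 as pseudogenes. Aligned over their whole length, Gm28661 matched mt-Co2 at 681 of 681 bases, Gm28437 matched mt-Co3 at 783 of 783 and Gm10925 matched mt-Atp6 at 678 of 678. The first 60 bases of each pair, from GENCODE M21 transcripts on GRCm38, are shown because each pair is the same letter for letter, so that reads of one cannot be told apart from reads of the other. Capitals would mark bases that differ within a pair, and there are 0.
mt-Co2, chrM:7013-7072, plus strand: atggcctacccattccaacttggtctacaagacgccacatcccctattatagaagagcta
Gm28661, chr1:24615506-24615565, minus strand: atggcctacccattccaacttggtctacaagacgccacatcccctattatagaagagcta
mt-Co3, chrM:8607-8666, plus strand: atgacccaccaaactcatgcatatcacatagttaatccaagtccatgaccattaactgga
Gm28437, chr1:24613912-24613971, minus strand: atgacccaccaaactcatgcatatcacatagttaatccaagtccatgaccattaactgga
mt-Atp6, chrM:7927-7986, plus strand: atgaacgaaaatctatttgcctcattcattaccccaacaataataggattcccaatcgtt
Gm10925, chr1:24614592-24614651, minus strand: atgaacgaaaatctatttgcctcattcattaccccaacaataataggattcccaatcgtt

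Read alone, mt-Co2, which encodes a subunit of cytochrome c oxidase, rose several-fold in F1_Dep. Its counts gave 1496, 1699 and 887 CPM in F0_Dep and 6699, 7095 and 6659 CPM in F1_Dep, a log2 fold change of 2.33 ± 0.24 (SE, adjusted p = 0.0026). Gm28661 took the opposite course, with 4253, 4119 and 4664 CPM in F0_Dep and 0 in all 9 other libraries, where a count of 0 allows up to 0.165 CPM. Summed, mt-Co2 and Gm28661 held 5706 ± 139 CPM in F0_Dep and 6818 ± 241 CPM in F1_Dep (SD, n = 3), a log2 ratio of 0.26. The sums were 5629 ± 111 and 6721 ± 293 CPM for mt-Co3 with Gm28437, and 4854 ± 125 and 6352 ± 290 CPM for mt-Atp6 with Gm10925. In FPKM, mt-Co2 had a log2 fold change of 0.07 (adjusted p = 0.696). The FPKM of Gm28661 was 5388 ± 79.7 in F0_Dep and 5429 ± 249 in F1_Dep (SD, n = 3), close to that of mt-Co2 itself.

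**Figure D2:**
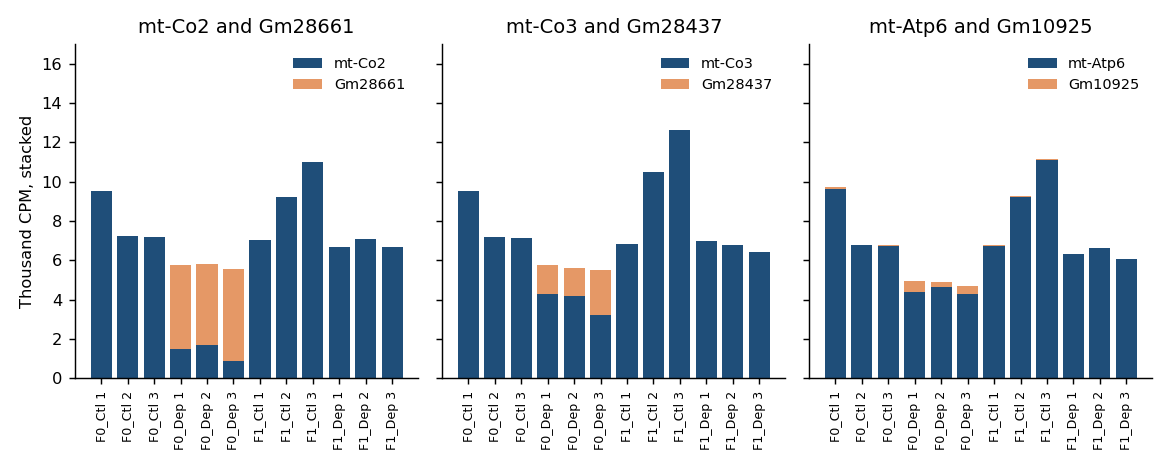
CPM of 3 mitochondrial genes and of the chromosome 1 copy identical to each, stacked, in each of the 12 libraries. A visible share lies in the copies in F0_Dep, while mt-Co2 and Gm28661 together differ little between F0_Dep and F1_Dep.

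All mitochondrially encoded genes together took 5.17 ± 0.13% of the counts in F0_Dep and 6.96 ± 0.24% in F1_Dep, and 5.82 ± 0.08% and 6.96 ± 0.24% with the copies included (SD, n = 3). The control groups held 8.26 ± 0.86% and 9.2 ± 1.74%. Of 13 mitochondrially encoded genes, 10 had all F1_Dep libraries above all F0_Dep libraries in counts, against 22.6% of all genes. In FPKM the median log2 fold change of the 13 genes was 0.08, with 0 called higher and 2 called lower. Apart from mt-Co2 the only call in counts was mt-Atp8, a short subunit of ATP synthase. It fell from 118, 139 and 133 CPM to 73.2, 86.9 and 85.2 CPM. It fell in FPKM too, where its log2 fold change was -1.35 (adjusted p = 0.00646).

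Among called genes with an FPKM test, 9 had an FPKM log2 fold change between -0.2 and 0.2 and were not called there, among them mt-Co2, the pseudogenes Gm28661, Gm28437, Gm10925 and Gm1821, and the genes Galnt2, Hnrnpc and Coq8a. Galnt2, an enzyme that starts O-glycosylation, fell in counts from 60.7, 66.3 and 61.8 CPM to 30.7, 32.5 and 33.9 CPM, with a log2 fold change of -0.96 ± 0.10 (SE, adjusted p = 0.00306). Its FPKM was 14.4 ± 0.63 in F0_Dep and 12.8 ± 0.59 in F1_Dep (SD, n = 3). The annotated read-through gene Gm20388 covers 114332 of its 114334 bases on the same strand, and held 3.42, 0 and 2.18 CPM in F0_Dep against 21.8, 24.5 and 22.2 CPM in F1_Dep. These genes are therefore uncertain, as is Rps27rt, a copy of a ribosomal protein gene, at a log2 fold change of 3.07 in counts and 0.42 in FPKM (adjusted p = 0.124).

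**Figure D3:**
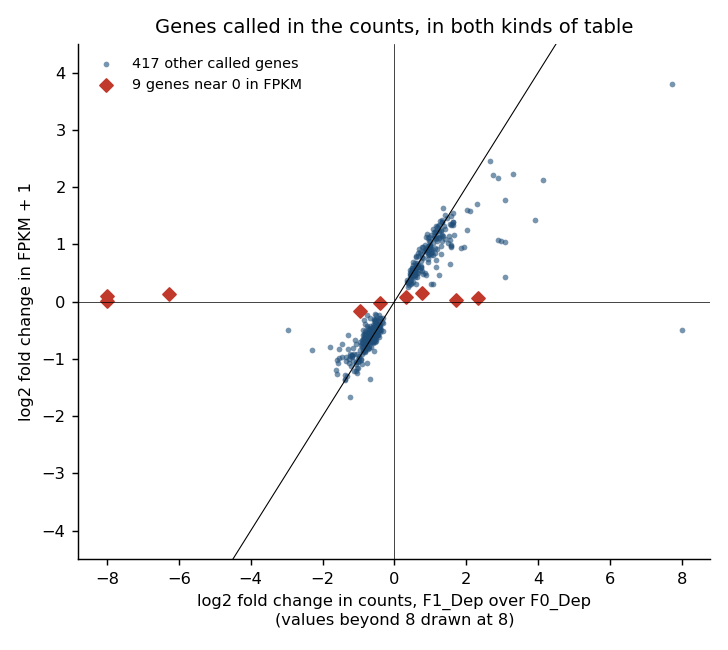
Log2 fold change of F1_Dep over F0_Dep in FPKM + 1 against that in counts, for the 426 called genes that have both, 1 point per gene, with values beyond 8 drawn at 8. Diamonds mark the 9 genes near 0 in FPKM, and 422 of the 426 genes have the same sign in both.

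The hippocampal identity of the samples was checked on marker lists, and genes of the choroid plexus had the largest median difference of all lists. In bulk tissue fewer cells of a type and less RNA per cell cannot be told apart. Ttr, the thyroxine carrier that the choroid plexus secretes, stood at 112, 197 and 5.67 CPM in F0_Dep and at 2604, 4085 and 3741 CPM in F1_Dep. F1_Dep was above F0_Dep for 24 of 25 choroid plexus genes, with a median log2 fold change of 3.22, and for 19 of 23 genes of ependyma and motile cilia, with a median of 1.71. Over all genes the share wholly above was 22.6%. The count test called 0 genes of either list. Without F0_Ctl 3, F1_Ctl 3 and F1_Dep 1 together it called 23 of the 25 choroid plexus genes, all higher. In that fit 823 genes were called higher in all. F0_Ctl 3 and F1_Ctl 3 stood apart in choroid plexus RNA itself, and the omission was chosen after seeing the data. Those 23 calls therefore give no independent support for a rise. FPKM called 15 of 24 choroid plexus genes higher, against 7.59% of all genes, among them the folate receptor Folr1, the potassium channel subunit Kcne2, the chloride channel Clic6 and the transcription factor Otx2.

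Summed over the 25 choroid plexus genes, the level was 297 to 661 CPM in F0_Dep and 3890 to 6701 CPM in F1_Dep. The control groups spanned both ranges, from 265 to 6929 CPM in F0_Ctl and from 468 to 13160 CPM in F1_Ctl. With the choroid plexus level of each library as a covariate, 9 genes were called: Plk3, Sema5a, Lrrc17, Galnt2, mt-Co2, Gm28661, Gm28437, Trib1 and Vgf. Trib1 is a pseudokinase and Vgf a secreted neuropeptide precursor. The covariate differs between the groups without overlap, so that the covariate and the group cannot be told apart in full.

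Genes of the striatum and of neocortex were also higher in F1_Dep, and most in F1_Dep 1. The adenosine receptor Adora2a, which marks the striatal neurons that project to the external pallidum, stood at 1.36, 1.22 and 1.15 CPM in F0_Dep and at 54.6, 7.10 and 3.87 CPM in F1_Dep. Each F1_Dep library exceeded all F0_Dep libraries, and F1_Dep 1 exceeded F1_Dep 2 and 3 several times over. Control libraries held 2.14, 1.24 and 4.86 CPM in F0_Ctl and 4.31, 1.93 and 2.30 CPM in F1_Ctl, in part above F1_Dep 3. Adora2a was called, with a log2 fold change of 4.13 ± 0.92 (SE), but not in FPKM (2.13, adjusted p = 0.0614). In all, 2 of 13 genes of the list were called, both higher, against 1.31% of all genes. All 13 striatal genes tested were higher in F1_Dep, with a median of 2.11, which became 0.97 without F1_Dep 1. Adora2a kept its call in 1 of the 6 single omissions. The summed level of the list was 429 to 457 CPM in F0_Dep and 2100, 629 and 521 CPM in F1_Dep 1, 2 and 3. It was 460 to 539 CPM in F0_Ctl and 437 to 535 CPM in F1_Ctl, so that F1_Dep 3 lay within the range of the controls.

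A list of neocortical genes was added after these values were seen. In it 17 of 24 genes were higher in F1_Dep and 5 were called, all higher, against 1.31% of all genes. F1_Dep lay wholly above F0_Dep for 14 of them and wholly below for 4, against 22.6% and 20.4% of all genes. Being chosen with these values known, the list gives no independent support for a rise. Among the largest rises it holds Nxph3, a neurexin ligand, Ccn2, a secreted matrix protein, and the sulfotransferase Hs3st2. Nxph3 stood at 2.66, 3.33 and 3.05 CPM in F0_Dep and at 37.4, 14.7 and 15.0 CPM in F1_Dep. In controls it stood at 5.34, 19.2 and 3.00 CPM in F0_Ctl and at 4.18, 4.90 and 10.5 CPM in F1_Ctl. Ccn2 stood at 7.87, 10.6 and 10.8 CPM in F0_Dep and at 92.7, 50.1 and 43.4 CPM in F1_Dep. Hs3st2, the cholecystokinin receptor Cckbr and the collagen Col6a1 made up the other calls, with log2 fold changes of 2.76, 1.62 and 2.10. For all 5 genes F1_Dep 1 was the highest library, and F1_Dep 2 and 3 were also above every F0_Dep library. The median of the list was 0.79, and 0.67 without F1_Dep 1. Among the genes of the list that were not called, log2 fold changes ran from -0.60 for Tle4 to 2.05 for Cplx3. The part of these markers in the changes of other genes was not tested.

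**Figure D4:**
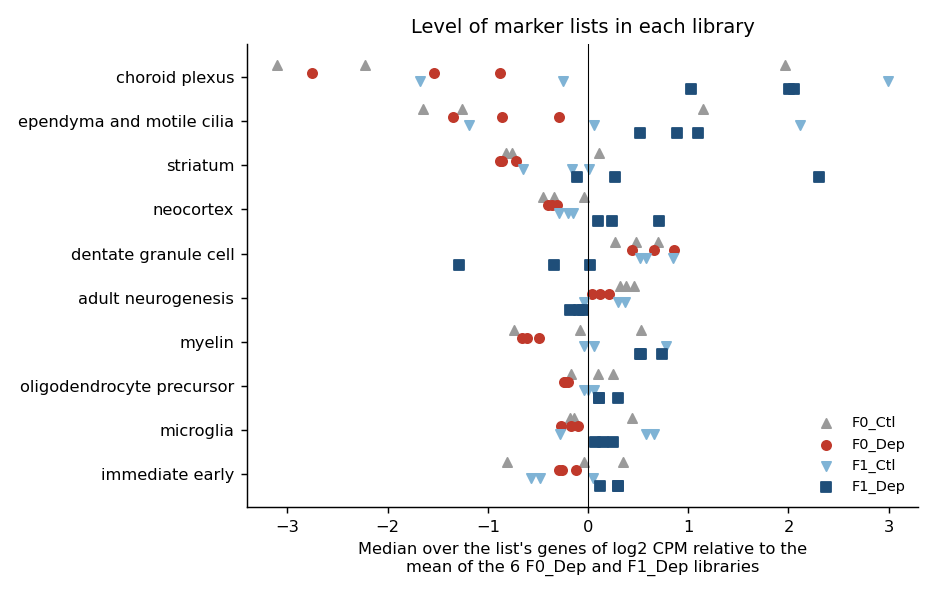
Level of 10 marker lists in each of the 12 libraries, as the median over the list's genes of log2 CPM relative to the mean of the 6 libraries compared, 1 point per library. F1_Dep libraries lie above F0_Dep libraries for choroid plexus, myelin and immediate early genes and below all other libraries for dentate granule cell genes.

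Dentate granule cell genes were lower in F1_Dep. Synpr, a synaptic vesicle protein of granule cell axons, stood at 146, 127 and 145 CPM in F0_Dep and at 50.5, 85.4 and 68.0 CPM in F1_Dep. Plk5, a polo-like kinase of the brain, stood at 45.7, 38.4 and 50.1 CPM and at 14.5, 24.5 and 14.1 CPM. Tdo2, the first enzyme of tryptophan breakdown, stood at 9.34, 7.59 and 9.98 CPM and at 1.70, 4.13 and 3.02 CPM. For each of these genes the groups were apart, and F1_Dep 2 was the highest of its group. All 3 fell, by 1.03 ± 0.16, 1.34 ± 0.21 and 1.60 ± 0.30 on the log2 scale (SE; adjusted p = 0.0207, 0.0207 and 0.029).

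Over the list, 15 of 16 dentate genes were lower, 14 of them without overlap, against 20.4% of all genes. The median log2 fold change was -1.17, and 3 genes were called lower in counts, against 1.57% of all genes. FPKM gave a median of -1.16 and called 11 of 16 genes, all lower, against 4.84% of all genes called lower. Prox1, the transcription factor that sets granule cell identity, stood at 180, 149 and 217 CPM in F0_Dep and at 38.4, 113 and 71.2 CPM in F1_Dep. Its log2 fold change of -1.29 just missed the threshold in counts (adjusted p = 0.0502) and passed in FPKM (adjusted p = 0.024). F1_Dep 1 was the lowest library by a wide margin for Dsp, at 1.75 CPM against 47.6 and 33.9 CPM in F1_Dep 2 and 3, and for C1ql2, at 2.21 CPM against 42.9 and 25.7 CPM. Without F1_Dep 1 the median was -0.84, and 0 of the 16 genes were called in counts. Without F0_Ctl 3, F1_Ctl 3 and F1_Dep 1 together it was -0.85, and 11 of the 16 were called, all lower. In that fit, chosen after seeing the data, 524 genes were called lower in all. All 3 F1_Dep levels were below those of the other 9 libraries of the series. The exception within the list was Marcks, at a log2 fold change of 0.18.

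Leaving out pseudogenes and predicted genes, Tdo2 of the dentate list was among the 12 largest falls. Fat4, an atypical cadherin, stood at 74.6, 68.9 and 78.5 CPM in F0_Dep and at 9.15, 34.0 and 27.9 CPM in F1_Dep. Kif26b, an atypical kinesin, stood at 43.1, 33.8 and 50.4 CPM and at 9.72, 22.4 and 13.7 CPM. Both followed the order of the dentate genes, with F1_Dep 1 lowest and F1_Dep 2 highest of the group. Their log2 fold changes were -1.64 ± 0.36 and -1.47 ± 0.31 (SE). Cdhr1, a cadherin known from photoreceptors, fell from 8.36, 7.26 and 8.78 CPM to 1.70, 2.54 and 2.84 CPM, by 1.78 on the log2 scale, and kept its call in 4 of 6 omissions. Olfm4, Myoc, Nkain3, Htra4, Arsj and the zinc finger gene Rreb1 fell by 1.58, 1.58, 1.55, 1.54, 1.47 and 1.39. All of these genes were also called lower in FPKM. Ttn, the giant muscle protein, fell by 2.37 in counts, from 20.2, 10.1 and 11.6 CPM to 2.37, 2.54 and 3.15 CPM, but its FPKM was at most 0.701 in all 6 libraries and was not tested.

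The pyramidal cell fields differed less than the dentate gyrus in their medians, a contrast that was not tested. Of 13 genes of CA1 and subiculum 7 were higher and 6 lower, with a median of 0.11 and 0 calls. Of 14 genes of CA2 and CA3, 9 were lower and 2 were called, against 2.88% of all genes. Nptx1, a secreted pentraxin that gathers glutamate receptors at synapses, stood at 909.7, 909.3 and 1021 CPM in F0_Dep and at 599, 682 and 565 CPM in F1_Dep. It was lower in every F1_Dep library and fell by 0.62 ± 0.13 on the log2 scale (SE, adjusted p = 0.0342). The other call was the rise of Col6a1, which the neocortical list also holds. Interneuron genes had a median of 0.15 and 0 calls among 20. Genes of thalamus and habenula were lower in 13 of 14 cases, with a median of -0.59 and 0 calls.

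Genes of adult neurogenesis were more often lower than higher in F1_Dep, with members going both ways. Neurod1, a differentiation factor of young granule cells, stood at 34.5, 31.9 and 38.3 CPM in F0_Dep and at 7.66, 19.9 and 14.1 CPM in F1_Dep, and fell by 1.32 ± 0.27 on the log2 scale (SE, adjusted p = 0.0351). Sox11 and Sox4, transcription factors of immature neurons, fell by 0.76 and 0.42 in counts, and Sox4 was not called in FPKM. Stmn1, a microtubule destabilizer, rose by 0.97 ± 0.16 (SE), from 157, 136 and 122 CPM to 339, 230 and 246 CPM. Dcx, the usual marker of young neurons, held 13.4 to 24.7 CPM in F1_Dep around 18.8 to 19.9 CPM in F0_Dep and was not called (adjusted p = 0.77). The dividing cell genes Mki67 and Top2a overlapped between the groups. In all, 7 of 19 genes were higher and 12 lower, with a median of -0.33. F1_Dep lay wholly below F0_Dep for 8 of them and wholly above for 2, against 20.4% and 22.6% of all genes. The count test called 3 lower and 1 higher, against 1.57% and 1.31% of all genes.

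Myelin genes were higher in F1_Dep. Ugt8a, the enzyme that makes the galactolipids of myelin, stood at 33.2, 41.6 and 37.0 CPM in F0_Dep and at 138, 103 and 103 CPM in F1_Dep. Trf, the iron carrier that oligodendrocytes secrete, stood at 175, 194 and 158 CPM and at 610, 523 and 499 CPM. Gjb1, a gap junction protein of oligodendrocytes, stood at 7.39, 7.32 and 6.49 CPM and at 23.9, 18.8 and 20.4 CPM. The groups lay far apart for each gene, and all 3 F1_Dep libraries took part. These genes rose by 1.62 ± 0.31, 1.63 ± 0.37 and 1.57 ± 0.31 on the log2 scale (SE; adjusted p = 0.0288, 0.0417 and 0.0326). Ermn, Fa2h, Cryab and Aspa were also among those called, with log2 fold changes from 1.14 to 1.57.

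All 21 myelin genes were higher, 20 of them without overlap, against 22.6% of all genes, and 8 were called, against 1.31% called higher. The median log2 fold change was 1.14 in counts and 1.15 in FPKM, where 14 of 21 were called higher, against 7.59%, and it was 1.06 without F1_Dep 1, when 0 were called in counts. Without F0_Ctl 3, F1_Ctl 3 and F1_Dep 1 together it was 1.05, and 18 of 21 were called higher. In that fit, chosen after seeing the data, 823 genes were called higher in all. With the choroid plexus level as a covariate the median was 0.49, and 0 were called. Mbp, a main protein of myelin, held 71.7 to 75.8 CPM in F0_Dep and 73.9 to 85.7 CPM in F1_Dep in the count table and was not called. In FPKM it held 1034 ± 37.4 and 2431 ± 328 (SD, n = 3) and rose by 1.22 (adjusted p = 0.0264), so the count and FPKM values of Mbp differ in more than scale. Control libraries varied as widely as the groups compared: the summed level of the list was 3662 to 4187 CPM in F0_Dep, 9283 to 9810 CPM in F1_Dep, 2928 to 9205 CPM in F0_Ctl and 5575 to 12659 CPM in F1_Ctl.

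The transcription factors that specify the oligodendrocyte lineage rose along with myelin. Sox10 stood at 34.9, 35.6 and 35.6 CPM in F0_Dep and at 90.5, 76.5 and 72.3 CPM in F1_Dep, a log2 fold change of 1.17 ± 0.20 (SE, adjusted p = 0.0222). Olig2 stood at 17.5, 19.2 and 17.02 CPM and at 38.4, 41.3 and 39.0 CPM, a log2 fold change of 1.15 ± 0.20 (adjusted p = 0.0265), and Olig1 had one of 0.92 ± 0.18. Replicates of either group differed little for all 3 genes. Other genes of the precursor list were mixed: the growth factor receptor Pdgfra stood at 39.5, 46.3 and 47.0 CPM and at 41.9, 47.5 and 49.6 CPM, and Gpr17 and Vcan also overlapped, while Neu4, C1ql1, Enpp6 and Cspg4 were higher without overlap, at log2 fold changes from 0.27 to 0.79, and Tnr was lower without overlap, at -0.50. Of the 15 genes of the list, 7 lay wholly above, against 22.6% of all genes, and 1 below. The median was 0.31, and the 3 calls were Sox10, Olig2 and Olig1, against 1.31% of all genes called higher. FPKM called 4 of 14 higher and 1 lower, against 7.59% and 4.84% of all genes.

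The other largest rises were in genes of low level. Klk6, a serine protease that oligodendrocytes express, stood at 0.60, 0.61 and 0.76 CPM in F0_Dep and at 8.18, 4.09 and 4.46 CPM in F1_Dep, a log2 fold change of 3.07 ± 0.46 (SE). Krt80, an epithelial keratin, stood at 1.14, 1.55 and 1.31 CPM and at 15.0, 7.70 and 7.201 CPM, and rose by 2.89 ± 0.35. For both, F1_Dep 1 was highest, and F1_Dep 2 and 3 alone were still several times above F0_Dep. Trbc2, a constant segment of the T cell receptor beta chain, rose from 1.19, 0.44 and 0.33 CPM to 11.2, 3.87 and 4.501 CPM. Rxrg, a retinoid receptor of striatum and oligodendrocytes, rose from 0.71, 0.67 and 0.44 CPM to 22.99, 2.32 and 2.43 CPM, so that its size rests on F1_Dep 1. Podn, a matrix proteoglycan, rose by 2.38. In FPKM, Trbc2, Klk6 and Krt80 were called, Rxrg was not (adjusted p = 0.0967), and Podn was too low to be tested.

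Immediate early genes, which neurons switch on within minutes of activity, were mostly higher in F1_Dep, though none rose in the count test. Fos stood at 14.9, 16.9 and 14.0 CPM in F0_Dep and at 54.5, 43.2 and 30.8 CPM in F1_Dep, a log2 fold change of 1.49 ± 0.45 (SE, adjusted p = 0.0838). Egr1 stood at 200.5, 195 and 128 CPM and at 542, 452 and 424 CPM, a log2 fold change of 1.44 ± 0.38 (adjusted p = 0.0582). Arc stood at 246, 264 and 184 CPM and at 535, 532 and 408 CPM (adjusted p = 0.152). The groups did not overlap for these genes, but control libraries varied widely too: Arc stood at 436, 296 and 116 CPM in F0_Ctl, and Fos at 29.1, 26.2 and 12.7 CPM in F0_Ctl and at 15.7, 42.6 and 10.8 CPM in F1_Ctl. FPKM called 11 of 26 genes higher, against 7.59% of all genes, Fos, Egr1 and Arc among them, and 1 lower. In counts, 23 of 26 were higher, 18 of them without overlap, against 22.6% of all genes, and the median was 0.51.

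Jun went the other way. It stood at 120, 115 and 132 CPM in F0_Dep and at 36.7, 76.5 and 50.3 CPM in F1_Dep, and fell by 1.16 ± 0.22 on the log2 scale (SE, adjusted p = 0.0288). In order of F1_Dep libraries it resembled the dentate genes rather than Fos, being lowest in F1_Dep 1 and highest in F1_Dep 2. Bdnf, the growth factor gene of this list, stood at 51.7, 54.9 and 63.5 CPM and at 39.0, 52.9 and 50.7 CPM and was not called (adjusted p = 0.261). Vgf, which Bdnf is known to induce, rose from 142, 148 and 131 CPM to 257, 214 and 204 CPM, by 0.68 ± 0.11 (SE, adjusted p = 0.0207), and by 0.92 in FPKM. Ptn, a heparin-binding growth factor, rose by 0.51. Trib1 had a log2 fold change of 1.19 ± 0.23 (SE, adjusted p = 0.0292).

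The receptors for adrenal stress hormones were not called, while 2 genes that glucocorticoids induce were. Nr3c1, the glucocorticoid receptor, stood at 95.9, 94.0 and 94.4 CPM in F0_Dep and at 116, 102 and 101 CPM in F1_Dep (adjusted p = 0.597), and Nr3c2, the mineralocorticoid receptor, had a log2 fold change of -0.29 ± 0.16 (SE, adjusted p = 0.301). Neither was called in any of 19 alternatives. Of 23 genes that glucocorticoids induce, 14 were higher and 9 lower, and the median was 0.08. The count test called 2, both higher, against 1.31% of all genes. FPKM called 5 of 22 higher, against 7.59% of all genes, and 1 lower. The 2 genes called in counts were Tsc22d3, a mediator of the anti-inflammatory action of glucocorticoids, and Arl4d, a small GTPase. Tsc22d3 rose from 48.1, 44.8 and 40.1 CPM to 56.3, 75.3 and 78.1 CPM, and Arl4d rose by 0.99. Sgk1, a kinase of this list that oligodendrocytes also express, stood at 143, 142 and 114 CPM and at 203, 303 and 273 CPM, a log2 fold change of 0.97 ± 0.25 (adjusted p = 0.0536), and was called in FPKM. Fkbp5, a co-chaperone that dampens the receptor, stood at 61.8, 73.8 and 74.7 CPM and at 44.9, 54.4 and 57.1 CPM, a log2 fold change of -0.43 ± 0.12 (SE, adjusted p = 0.0743). Plin4 overlapped between the groups. The corticotropin-releasing hormone receptor Crhr1 did so too. Of 7 genes of corticosteroid and corticotropin-releasing hormone signalling with an FPKM test, 2 were called higher, against 7.59% of all genes. They were the hormone Crh and its binding protein Crhbp. In counts their log2 fold changes were 1.17 (adjusted p = 0.0702) and 0.80 (adjusted p = 0.0741). The count test called 0 of the 9 genes of this list.

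Among synaptic genes more were lower than higher. Lrrtm4, a postsynaptic adhesion protein of granule cells, fell from 52.0, 45.9 and 59.7 CPM to 21.3, 30.0 and 23.7 CPM, by 1.07 ± 0.15 on the log2 scale (SE, adjusted p = 0.0103). Camk2b, a subunit of the main postsynaptic kinase, fell from 1813, 1743 and 1810 CPM to 1038, 1256 and 1253 CPM, by 0.60 ± 0.12. In both cases the groups were apart, and F1_Dep 1 was the lowest library. Dlg1, a scaffold protein that oligodendrocytes also make, rose by 0.66 ± 0.14. In the postsynaptic list 21 of 25 genes were lower, with a median of -0.26. It held 3 calls, 1 higher and 2 lower, against 2.88% of all genes.

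Of 22 glutamate receptor genes 3 were called, 2 higher and 1 lower, against 2.88% of all genes. The inhibitory metabotropic receptors Grm3 and Grm8 rose by 1.02 ± 0.19 and 1.85 ± 0.43 on the log2 scale (SE). Grm3 stood at 22.7, 26.5 and 20.3 CPM in F0_Dep and at 51.8, 45.8 and 43.0 CPM in F1_Dep, with tight replicates. Grm8 stood at 1.95, 2.55 and 2.89 CPM and at 14.2, 6.46 and 6.12 CPM, highest in F1_Dep 1, and was not called in FPKM (adjusted p = 0.0541). Over the list 14 of 22 glutamate receptor genes were lower. The GABA receptor subunits Gabrb1 and Gabra4 fell by 0.52 ± 0.11 and 0.50 ± 0.11, and 11 of 15 genes of their list were lower. They were the 2 calls of that list, against 2.88% of all genes. The serotonin receptor Htr2a rose by 0.60 in counts and was not called in FPKM (adjusted p = 0.172).

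Astrocyte genes had a median of -0.03, with 2 of 20 called, against 2.88% of all genes. Slc4a4, their sodium bicarbonate transporter, fell from 182, 190 and 211 CPM to 130, 133 and 124 CPM, by 0.60 ± 0.10 (SE, adjusted p = 0.0207). Agt, the precursor of angiotensin, fell by 1.16 ± 0.26. Gfap, the intermediate filament that reactive astrocytes raise, overlapped, with 284, 317 and 314 CPM in F0_Dep and 276, 403 and 371 CPM in F1_Dep. Microglial genes were higher in 20 of 20 cases by small amounts, with a median of 0.30 (0.23 in F1_Ctl over F0_Ctl) and 0 calls. Their marker Aif1 stood at 2.44, 1.995 and 1.09 CPM and at 3.09, 2.84 and 2.93 CPM. Endothelial and pericyte genes had medians of 0.07 and 0.23 with 0 calls. Slc6a13, a transporter of GABA and taurine in meningeal cells, fell by 1.28 ± 0.25. It was the only call among 15 meningeal and fibroblast genes, against 2.88% of all genes.

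Genes of cholesterol synthesis and uptake were higher in 21 of 22 cases, with a median of 0.35, and Cyp51, a demethylase of the pathway, rose by 0.39 in counts and was not called in FPKM (adjusted p = 0.0644). Endoplasmic reticulum stress genes were higher in 19 of 21 cases, with a median of 0.29 and 0 calls. FPKM called 7 of 20 of them higher, against 7.59% of all genes. The count test called 8 higher without F0_Ctl 3, F1_Ctl 3 and F1_Dep 1, where 823 genes were called higher in all. Hspa8, a constitutive chaperone, rose by 0.38, and Tef, a transcription factor of the circadian output, fell by 0.34. Genes that process or act with microRNAs were lower in 12 of 15 cases, and Tnrc6b, a partner of Argonaute proteins, fell from 154, 166 and 171 CPM to 99.9, 101 and 102 CPM, by 0.70 ± 0.10 (SE, adjusted p = 0.0147). Genes of cytosolic ribosomal proteins were higher in 70 of 79 cases and nuclear genes of oxidative phosphorylation in 44 of 53. Their medians were 0.21 and 0.16, with 0 calls in either list. In F1_Ctl against F0_Ctl the medians of these lists were larger, at 0.38 and 0.26. Interferon-stimulated genes had a median of 0.30 and 0 calls among 21. Among 22 imprinted genes, which are expressed from 1 parental allele, there was 1 call, against 2.88% of all genes. It was Inpp5f, a phosphoinositide phosphatase, which rose by 0.39 in counts and was not called in FPKM (adjusted p = 0.097). Of 30 genes that write, read or erase DNA methylation and histone marks, 0 were called, against 2.88% of all genes.

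The same generation contrast in mice without stress, F1_Ctl against F0_Ctl, gave 0 calls among 16163 genes (0%) in edgeR. DESeq2 also gave 0, and 957 genes had an unadjusted p under 0.05. Leaving out F1_Ctl 1 gave 400 calls and leaving out F0_Ctl 3 gave 9, so this count too depended on single libraries. F1_Ctl labels alone carry lane names, so a difference in sequencing cannot be told apart from that group. For 11 genes (0.0681%) the contrast of F1_Dep with F0_Dep differed from that of F1_Ctl with F0_Ctl by a test of the difference itself.

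Of these 11 genes, 4 differed upwards (Plk3, Vgf, Krt80 and mt-Co2) and 7 downwards (Sema5a, Lyst, Unc5d, Kctd4, Adarb2, Lrrc17 and Galnt2). Sema5a had log2 fold changes of -1.36 in the stress pair and 0.26 in the control pair, a difference of -1.62 ± 0.23 (SE, adjusted p = 0.0316). Plk3 had 1.09 and -0.39, a difference of 1.49 ± 0.18 (adjusted p = 0.0161). Lyst, a regulator of lysosome size, stood at 157, 180 and 187 CPM in F0_Dep and at 73.2, 89.3 and 84.5 CPM in F1_Dep. Unc5d, a netrin receptor, stood at 27.3, 29.1 and 34.6 CPM and at 16.3, 17.04 and 16.4 CPM. Kctd4 stood at 113, 108 and 130 CPM and at 59.1, 77.6 and 52.5 CPM, and Adarb2, an RNA-binding relative of the editing enzymes, at 45.9, 46.7 and 42.4 CPM and at 14.0, 21.8 and 21.02 CPM. For these 4 genes the groups did not overlap, FPKM called the fall as well, and the control pair had log2 fold changes from 0.31 to 0.67. The number of genes that differed between the contrasts was 0 without F0_Dep 1 or F1_Ctl 2, 184 without F0_Ctl 3 and 126 without F1_Ctl 3. Because F0_Dep and F1_Dep enter both this test and the main comparison, the 11 genes are not independent support for the calls above.

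**Figure D5:**
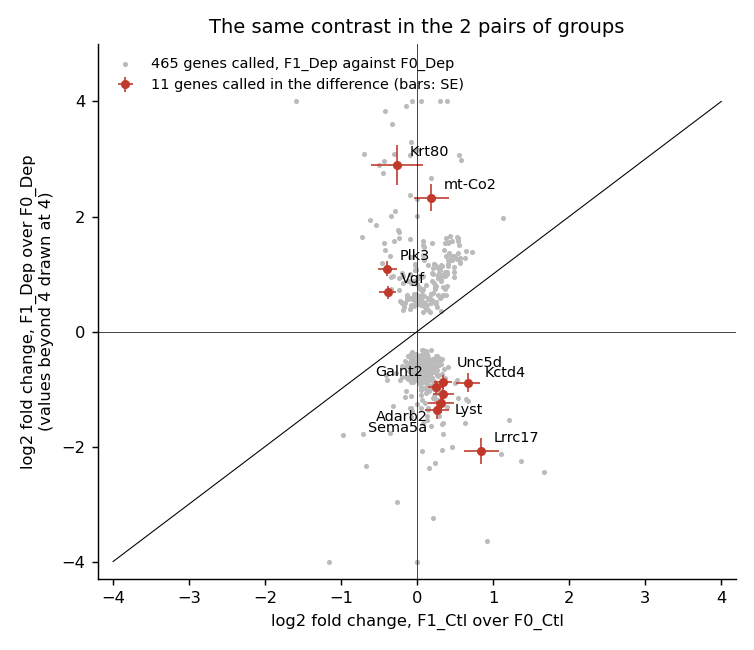
Log2 fold change of F1_Dep over F0_Dep against that of F1_Ctl over F0_Ctl, 1 point per gene, for the 465 called genes (values beyond 4 drawn at 4) and, with SE bars, for the 11 genes called in the difference. Krt80, mt-Co2, Plk3 and Vgf lie above the line of equality and the other 7 below it.

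Of the 20 genes with the smallest p that were called in both kinds of table, 14 fell. Beside genes named above, Dgkh, a diacylglycerol kinase, fell from 297, 281 and 299 CPM to 99.2, 148 and 124 CPM, by 1.24 ± 0.17 (SE, adjusted p = 0.0103). In FPKM + 1 it fell by 1.66 on the log2 scale, from a mean FPKM of 5.01 ± 2.18 to 0.83 ± 0.21 (SD, n = 3). F0_Ctl held a mean of 230 CPM but an FPKM of 0.91, so the count and FPKM values of Dgkh differ in more than scale. Map3k2, Foxn2, Bag4 and the cold-inducible RNA-binding protein gene Rbm3 fell by 0.64, 0.66, 0.61 and 0.71. H2-T23, a nonclassical major histocompatibility gene, rose from 4.996, 4.38 and 3.98 CPM to 17.4, 13.04 and 10.3 CPM, by 1.61 ± 0.20. Tyro3, a receptor kinase of neurons and oligodendrocytes, rose from 73.5, 71.4 and 53.0 CPM to 188, 143 and 161 CPM, by 1.31 ± 0.21. Osbpl1a, a lipid transfer protein, rose by 0.91. For each of these genes all F1_Dep libraries lay on one side of all F0_Dep libraries.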

How the data were processed

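Hippocampal RNA of 12 male mice, 3 per group, was sequenced from libraries of a stranded mRNA kit, per the labels. The deposited table holds an expected count per Ensembl gene, of which 72.8% are exactly whole, zeros included. FPKM values were deposited per library, and those of 9 libraries were used. The submitters' processing notes name HISAT2, Cufflinks 2.2.1 and mm10 without roles, and how the expected counts were made is not stated in them. Symbols matched 35202 of 35812 gene IDs. The 610 without one held 0.579% of the counts. They were kept under their gene IDs and passed through the same filter and tests.

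Counts were rounded and tested in edgeR 4.0.16 (R 4.3.3) by the quasi-likelihood test with TMM over all 4 groups, with Benjamini-Hochberg adjustment and a threshold of 0.05. log2(FPKM + 1) was tested in limma 3.58.1 for genes at an FPKM of 1 or more in 3 libraries, a scale that understates the change of low genes. DESeq2 1.42.0, voom, other scalings, filters and omissions were alternatives. Adjusted p in the text are from edgeR for counts and from limma for FPKM. Whether mice shared a litter is unknown, so p-values measure the spread between these mice only. With 3 against 3 libraries an exact permutation test of a single gene cannot go below 0.1.

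The members and lists were chosen with earlier results of these data known. Named genes were the 12 largest rises and falls among called genes with a mean of at least 2 CPM and no overlap between the groups, leaving out pseudogenes and predicted genes, up to 3 called members of each of 37 lists, and a set of stress, activity and marker genes. Genes named for their stability, for the smallest p, or within a list beyond these were chosen after their values were seen. A count of 0 allows 3 counts in a library, for counting error only. Some genes that this rule names are not reported here.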

Additional observations from a re-analysis of the deposited data

Results flagged for a closer look

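For 11 genes the log2 fold change of F1_Dep over F0_Dep differed from that of F1_Ctl over F0_Ctl by a test of the difference itself, in edgeR's quasi-likelihood test with Benjamini-Hochberg adjustment. The difference was upwards for Krt80 (3.16), mt-Co2 (2.14), Plk3 (1.49) and Vgf (1.07). It was downwards for Lrrc17 (-2.92), Sema5a (-1.62), Kctd4 (-1.56), Adarb2 (-1.56), Lyst (-1.43), Galnt2 (-1.21) and Unc5d (-1.21). In FPKM, mt-Co2 and Galnt2 were near 0 between F1_Dep and F0_Dep, and Lrrc17 was too low to be tested.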

How the results depend on the processing

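The count of 465 genes called between F1_Dep and F0_Dep was 1500 in DESeq2, 4703 in voom with library weights, 3746 with only the groups compared in the fit, 1405 at an adjusted p under 0.1, 171 with a fold change of at least 2 and 9 with the choroid plexus level as a covariate. It was 1347 without F0_Ctl 3, F1_Ctl 3 and F1_Dep 1, an alternative chosen after seeing the data, and 8 to 172 with 1 library left out. DESeq2 called all 465 genes among its own. With the replicate number as a block (replicate block) 177 genes were called. Same-numbered libraries correlated at 0.01, -0.0085 and -0.0089 in their deviations from the group mean. With 3 libraries a group, such values cannot show whether the numbers pair the libraries. F1_Ctl against F0_Ctl gave 23 calls without those 3 libraries and 0 to 400 with 1 left out. The 11 genes of the difference became 498 in DESeq2, 514 in voom, 6 with library totals only, 63 with no filter on low counts, 24 with a filter at 10 CPM, 4 with the replicate block, 33 with the covariate, 487 without the 3 libraries, 99 at an adjusted p under 0.1 and 0 to 184 with 1 left out. The 1590 FPKM calls became 767 with no filter, 3873 with only the groups compared, 2970 at an adjusted p under 0.1 and 6 to 632 with 1 left out. Of the named genes, 3 reversed in direction: Plin4 (-0.15) and Ttr (-0.40) with the covariate, and Gm10925 in FPKM (0.13). The cause was not tested. Genes at or under 3 counts in a library cannot be compared at this depth.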
